A study of Homo sapiens with 24 samples.

Results

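The liver X receptors and the sterol efflux genes they control were followed in HSJD-DIPG-007 cells, an established diffuse midline glioma line, under inhibition of the arginine methyltransferase PRMT5. The set held 9 genes, taken from the 58676 gene identifiers of the count table by symbol: the receptors NR1H2 and NR1H3, the transporters ABCA1, ABCG1 and ABCG4, the apolipoprotein APOE, and the target genes MYLIP, LPCAT3 and SMPDL3A. The question put to the data was whether, when and by how much these genes differed between treated and vehicle cultures.

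The line carries H3F3A K27M, ACVR1 R206H and PIK3CA MIS by its labels, and vehicle and treated cultures share this genotype. Cells were seeded as spheroids, and from the next day they received vehicle or LLY-283, an inhibitor that occupies the cofactor pocket of PRMT5, at the dose giving 40% growth inhibition. By the study's methods the medium was renewed after 5 days, with LLY-283 or vehicle given again. The libraries of days 7 and 10 therefore came after that renewal. RNA was sequenced in 24 libraries, 12 of each treatment, with 3 libraries per treatment at days 0 and 5, 2 at day 7 and 1 at days 1, 2, 3 and 10. The study calls libraries of 1 treatment and day technical repeats of this single line, so that p-values measure the spread between those repeats. Library totals lay between 13835205 and 23190369 estimated counts. Expression is given as CPM, counts scaled to a common library size with TMM, a correction for differences in library composition. The CPM of cell type markers leave TMM out.

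Liver X receptors are nuclear receptors that bind oxidised sterols. Paired with a retinoid X receptor (RXR), they sit on DR4 elements, which are direct repeats of a short motif with a fixed spacer, and they exchange corepressors for coactivators when a sterol binds. Their best known targets move cholesterol out of the cell onto apolipoproteins, lower its uptake and remodel membrane phospholipids, and in the brain APOE particles from glia carry cholesterol between cells.

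Promoter sequence was available for 7 of the 9 genes (RefSeq, GRCh38.p14), as 13 windows that run from 250 bases before to 50 after an annotated start. ABCG1 and SMPDL3A were named only. A DR4, searched on both strands as AGGTCA, 4 bases of any kind and AGGTCA again with at most 1 mismatch in each copy, was found in 1 of the 13 windows, that of ABCA1, against 1.38% of all 35116 windows. An exact AGGTCA on either strand was found in 1 of the 13, the most upstream of the 4 NR1H3 windows, against 13.8% of all windows. The bases before the start of these 2 windows are shown 5′ to 3′ on the strand of the gene, because they hold the only matches of these searches. The NR1H3 window holds a single AGGTCA and no DR4. The capitals mark the 2 copies of the DR4, read on the strand opposite to ABCA1, at chr9:104928209-104928224, and the single AGGTCA of NR1H3 at chr11:47248160-47248165. The ABCA1 stretch is chr9:104928156-104928405 on the minus strand, and the NR1H3 stretch is chr11:47248050-47248299 on the plus strand.
ABCA1: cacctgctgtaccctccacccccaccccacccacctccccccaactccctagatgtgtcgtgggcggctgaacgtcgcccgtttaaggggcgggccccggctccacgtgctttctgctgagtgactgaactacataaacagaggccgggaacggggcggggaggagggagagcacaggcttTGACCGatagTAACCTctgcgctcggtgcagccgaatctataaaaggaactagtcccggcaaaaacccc
NR1H3: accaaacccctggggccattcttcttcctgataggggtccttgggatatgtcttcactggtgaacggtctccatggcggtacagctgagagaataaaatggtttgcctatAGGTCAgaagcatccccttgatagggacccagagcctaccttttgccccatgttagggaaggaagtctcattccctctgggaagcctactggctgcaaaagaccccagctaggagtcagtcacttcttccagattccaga
The ABCA1 element differs from a perfect repeat at 2 bases. Binding was not measured, so these are matches of letters only.

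At day 5, ABCA1, ABCG1, APOE, NR1H3, LPCAT3 and MYLIP were higher in LLY-283 libraries than in vehicle libraries. The changes ran from 1.24-fold for MYLIP to 2.98-fold for APOE. Counts of 8 of the 9 genes were high enough to test, and 6 of these were called higher by edgeR's quasi-likelihood test (Benjamini-Hochberg adjusted p below 0.01, over 16491 genes), with none lower. Over all genes tested, 12% were called higher, 14.1% lower and 26.1% in either direction. The median log2 fold change of the 8 was 0.49, against 0.02 over all genes tested, and the libraries of the 2 treatments did not overlap for 7 of the 8, each higher in LLY-283, against 24.2% of all genes higher and 21.1% lower without overlap.

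**Figure D1:**
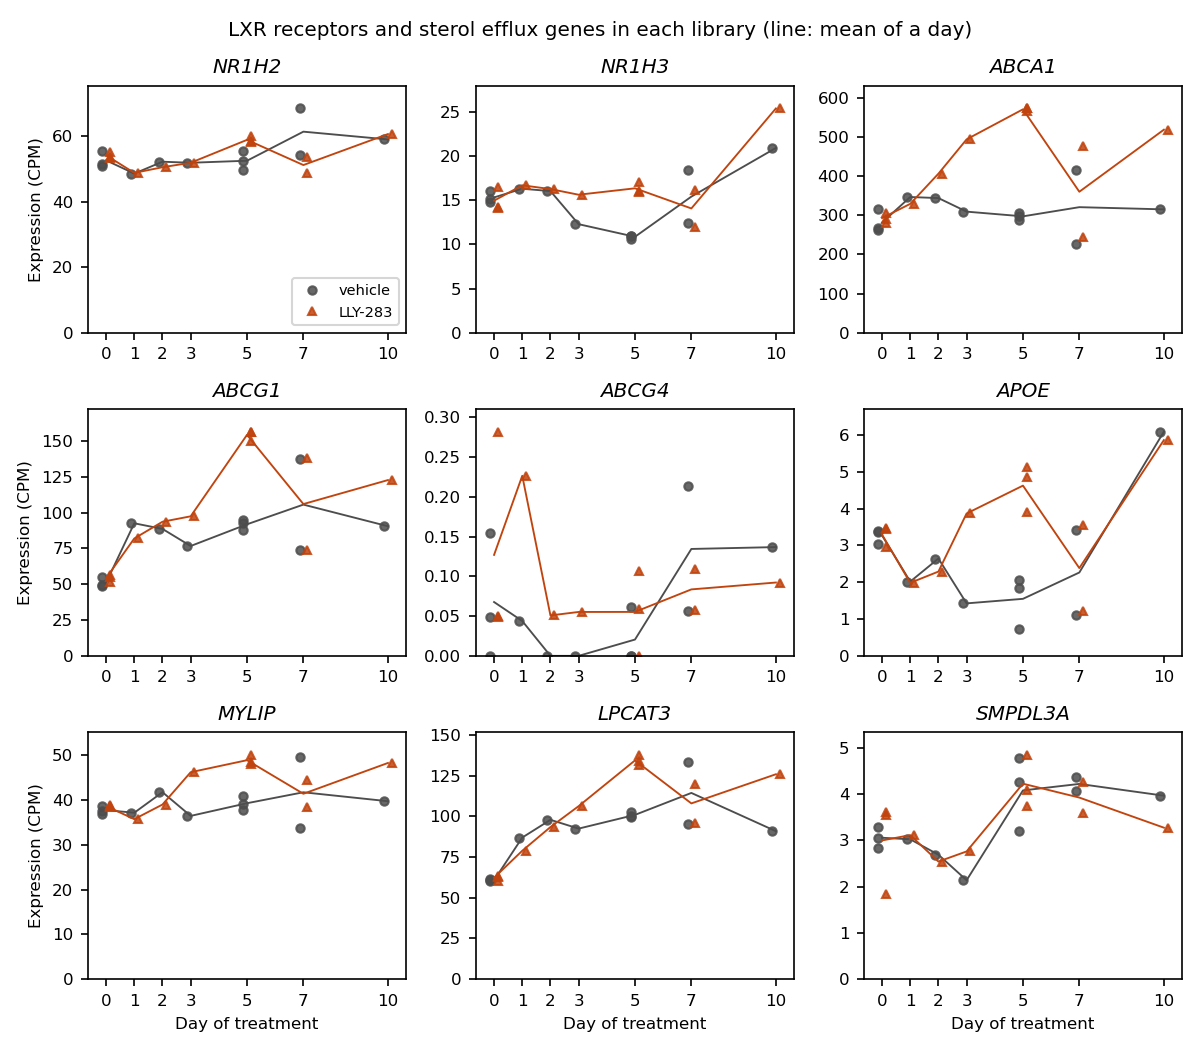
Expression in CPM (vertical axis, linear, from 0) of the 9 genes against day of treatment, with 1 point per library (circles, vehicle; triangles, LLY-283) and a line through the mean of each day. At day 5 the 3 LLY-283 libraries lie above the 3 vehicle libraries for 7 genes, for ABCA1 at 566.9 to 573.7 against 288.8 to 305.4 CPM, and at day 7 the 2 ABCA1 values are 226.6 and 415.5 CPM in libraries labelled vehicle and 476.5 and 244.5 CPM in those labelled LLY-283.

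The receptors came first in the order of the pathway. NR1H3 encodes LXRα, the form most abundant in liver and macrophages, which is itself a target of the receptors in human cells (ENSG00000025434, chr11:47248300-47269033, plus strand). It stood at 10.95, 10.99 and 10.65 CPM in the day 5 vehicle libraries. The LLY-283 libraries held 15.97, 17.08 and 16.02 CPM, all above every vehicle library. NR1H3 was thus 1.5-fold higher (log2 0.58 ± 0.0886 SE, edgeR adjusted p = 6.80e-06). Its exons overlap those of ACP2 on the opposite strand, and while the kit kept strand, the sources do not say whether counting did.

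NR1H2 encodes LXRβ, the form found in nearly all tissues (ENSG00000131408, chr19:50329653-50383388, plus strand, overlapped by NAPSA on the opposite strand). It measured 55.57, 49.65 and 52.53 CPM in vehicle and 60.09, 58.22 and 58.58 CPM in LLY-283 at day 5. The groups did not overlap, but the difference was small and missed the threshold (1.11-fold, log2 0.16 ± 0.0496 SE, edgeR adjusted p = 0.015). It passed with scaling on library size alone (adjusted p = 0.0043). Per kilobase of the Ensembl canonical transcript, NR1H2 was the more abundant receptor in all 24 libraries, by 1.83 to 3.89 times. The ratio was 3.46 to 3.89 in the day 5 vehicle libraries and 2.61 to 2.88 in the day 5 LLY-283 libraries.

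The efflux transporters followed. ABCA1 passes cholesterol and phospholipid to lipid-poor apolipoproteins (ENSG00000165029, chr9:104781006-104928155, minus strand). Its level was 305.4, 298.5 and 288.8 CPM in vehicle and 573.7, 566.9 and 573.6 CPM in LLY-283 at day 5. The spread within each treatment was a few per cent of the mean, and the lowest LLY-283 library was well above the highest vehicle library. ABCA1 was 1.91-fold higher (log2 0.93 ± 0.035 SE, edgeR adjusted p = 2.40e-17). Whether the DR4 match shown above has a part in this was not tested.

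ABCG1 moves cholesterol onto more mature lipoprotein particles and between membranes of the cell (ENSG00000160179, chr21:42199689-42297244, plus strand). It was at 92.68, 95.03 and 87.8 CPM in vehicle and at 156.5, 156.5 and 149.8 CPM in LLY-283. The groups were again separate, with a 1.67-fold rise (log2 0.74 ± 0.0402 SE, edgeR adjusted p = 7.10e-14). ABCG4, its close relative of neurons and glia (ENSG00000172350, chr11:119149052-119162653, plus strand), had between 0 and 5 counts per library in all 24 libraries. It could not be tested in any comparison, and a difference was not detectable at this depth.

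APOE is the main lipid-carrying apolipoprotein of the brain and an acceptor for cholesterol exported by ABCA1 (ENSG00000130203, chr19:44905791-44909393, plus strand). The day 5 vehicle libraries held 0.7385, 2.069 and 1.837 CPM, from 12, 32 and 25 counts. The LLY-283 libraries held 4.85, 5.123 and 3.892 CPM, from 82, 96 and 77 counts. APOE therefore had the highest fold of the 8 tested genes, 2.98-fold, together with the widest error (log2 1.58 ± 0.257 SE, edgeR adjusted p = 5.40e-05). Its exons share bases with ENSG00000280087 on the same strand, and the division of reads between both is uncertain.

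The remaining targets act on uptake and membranes. LPCAT3 inserts polyunsaturated chains into phospholipids (ENSG00000111684, chr12:6976185-7018477, minus strand, with EMG1 opposite). It read 99.63, 102.7 and 100.2 CPM in vehicle and 137.7, 133.8 and 131.4 CPM in LLY-283. The 1.32-fold rise was many times its error (log2 0.40 ± 0.0381 SE, edgeR adjusted p = 2.60e-09).

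MYLIP, also called IDOL, is a ubiquitin ligase that marks the LDL receptor for degradation (ENSG00000007944, chr6:16129086-16148248, plus strand). Its values were 39.2, 37.69 and 41 CPM in vehicle and 50.1, 48.56 and 48.07 CPM in LLY-283. This was the smallest of the 6 called changes, 1.24-fold (log2 0.31 ± 0.0522 SE, edgeR adjusted p = 2.90e-05). SMPDL3A, a secreted phosphodiesterase induced by sterols in macrophages (ENSG00000172594, chr6:122789049-122809720, plus strand), measured 3.2, 4.267 and 4.776 CPM in vehicle and 4.85, 3.735 and 4.094 CPM in LLY-283. These values overlapped (log2 0.05 ± 0.176 SE, edgeR adjusted p = 0.86).

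Ranked per kilobase of canonical transcript, the day 5 vehicle libraries gave LPCAT3 at 45.1 ± 0.731 CPM per kilobase (SD, n = 3), ABCG1 at 30.9 ± 1.24, ABCA1 at 28.6 ± 0.801, NR1H2 at 21.8 ± 1.23, MYLIP at 12.8 ± 0.539, NR1H3 at 5.87 ± 0.1, SMPDL3A at 2.31 ± 0.456 and APOE at 1.33 ± 0.61. The libraries of no 2 neighbours in this order overlapped. ABCG1 (lowest 29.5) and ABCA1 (highest 29.3) nearly did, and so did SMPDL3A (lowest 1.82) and APOE (highest 1.77), both from few counts. In the LLY-283 libraries LPCAT3 (60.1 ± 1.42) still led, but ABCA1 (54.9 ± 0.374) stood above ABCG1 (51.8 ± 1.3) and APOE (3.96 ± 0.554) above SMPDL3A (2.4 ± 0.323), again without overlap.

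The 6 calls at day 5 held without each library in turn and with DESeq2. When all 22 libraries of days 0 to 7 shared 1 estimate of the spread, 1 of the 8 genes, NR1H3, was called (edgeR adjusted p = 0.0048) and ABCA1 was not (adjusted p = 0.024). Over all genes, that fit called 2042, against 4304 in the day 5 libraries alone. Without both day 7 libraries numbered 2, described below, the shared estimate called 6 again, with 4229 genes called overall. In bulk RNA, a change in the number of cells of a kind and a change in RNA per cell cannot be told apart.

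At day 0 the 2 treatments were compared as a baseline, although the sources do not say whether the day 0 libraries labelled LLY-283 came from cells not yet dosed or harvested right after dosing. None of the 8 genes was called, with 0.0169% of 17780 genes called overall and 1012 genes (5.69%) at an unadjusted p under 0.05. The libraries of the 2 treatments overlapped for all 8, whereas 5.49% of all genes were higher and 5.43% lower without overlap. ABCA1 stood at 315.7, 262.6 and 266.5 CPM in vehicle and 281.6, 307 and 290.9 CPM in libraries labelled LLY-283 (log2 0.05 ± 0.0941 SE, edgeR adjusted p = 0.95), and APOE at 3.046, 3.371 and 3.393 against 2.959, 3.441 and 3.476 CPM. DESeq2 also called none of the 8.

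The difference between treatments was then tested for a change from day 0 to day 5. The 6 genes called at day 5 passed this test (6 of 8, all positive, against 6.78% of 18369 genes positive, 8.15% negative and 14.9% in either direction). It takes in the same day 5 libraries, and none of the 8 genes was called at day 0, so it is no separate support for the day 5 calls. The change in the log2 treatment difference was 1.58 ± 0.312 SE for APOE, 0.88 ± 0.0902 for ABCA1, 0.66 ± 0.067 for ABCG1, 0.62 ± 0.114 for NR1H3, 0.38 ± 0.0533 for LPCAT3 and 0.28 ± 0.0684 for MYLIP, with edgeR adjusted p-values from 4.90e-08 for ABCG1 to 0.003 for MYLIP. The MYLIP call was lost with DESeq2 (adjusted p = 0.029) and without vehicle day 0 replicate 1 (0.017), LLY-283 day 0 replicate 2 (0.012) or vehicle day 5 replicate 2 (0.013). With all 22 libraries in a shared fit none of the 6 passed.

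Between day 0 and day 5 of vehicle culture, some of these genes rose and others fell. The comparisons over days share the day 5 and day 0 libraries with those above. The day 0 libraries carry sample numbers in a range apart from that of the day 5 libraries. Within a treatment, culture time therefore cannot be told apart from a difference between these library sets, which was not tested. This holds for all changes over days given below. In vehicle cells from day 0 to day 5, 2 of the 8 were called higher and 2 lower, against 22.1% and 15.4% of 18369 genes (37.6% in either direction). NR1H3 fell from 14.82, 16.03 and 15.12 CPM at day 0 to the day 5 values given above (log2 change -0.47 ± 0.0841 SE, edgeR adjusted p = 2.90e-05). APOE fell as well (log2 change -1.07 ± 0.239 SE, edgeR adjusted p = 4.80e-04), by -0.71 without vehicle day 5 replicate 1, the library of 12 counts.

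ABCG1 rose in vehicle from 54.83, 48.76 and 49.56 CPM at day 0 (log2 0.87 ± 0.0487 SE, edgeR adjusted p = 7.50e-15). LPCAT3 rose from 61.43, 60.1 and 60.57 CPM (log2 0.76 ± 0.0384 SE, edgeR adjusted p = 9.50e-16). ABCA1 was not called (log2 0.10 ± 0.0646 SE, edgeR adjusted p = 0.22), although it was without vehicle day 0 replicate 1 (log2 0.19, adjusted p = 2.60e-04). MYLIP (log2 0.08 ± 0.0498), NR1H2 (0.02 ± 0.0474) and SMPDL3A (0.43 ± 0.211) were not called either. With all 22 libraries in a shared fit the calls of ABCG1 (adjusted p = 0.017) and APOE (0.064) were lost, while NR1H3 and LPCAT3 were still called.

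In LLY-283 cells from day 0 to day 5, 4 of the 8 were called higher and none lower, against 22.6% and 16.9% of all genes (39.5% in either direction). ABCG1 rose by 1.53 ± 0.0455 on the log2 scale, LPCAT3 by 1.13 ± 0.0368, ABCA1 by 0.98 ± 0.0632 and MYLIP by 0.36 ± 0.0469, with edgeR adjusted p-values from 2.50e-21 for ABCG1 to 1.80e-07 for MYLIP. NR1H3 (log2 0.15 ± 0.0765, adjusted p = 0.11) and APOE (0.51 ± 0.2, adjusted p = 0.036) were not called, so that for these 2 genes the called change over time was the lower value in vehicle at day 5. NR1H2 (0.14, adjusted p = 0.011) and SMPDL3A (0.52, adjusted p = 0.039) also missed the threshold, although NR1H2 passed it in the edgeR fit of 20 libraries (adjusted p = 0.0087) and without vehicle day 0 replicate 3 (0.0086), vehicle day 5 replicate 1 (0.0086) or vehicle day 5 replicate 2 (0.0085).

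**Figure D2:**
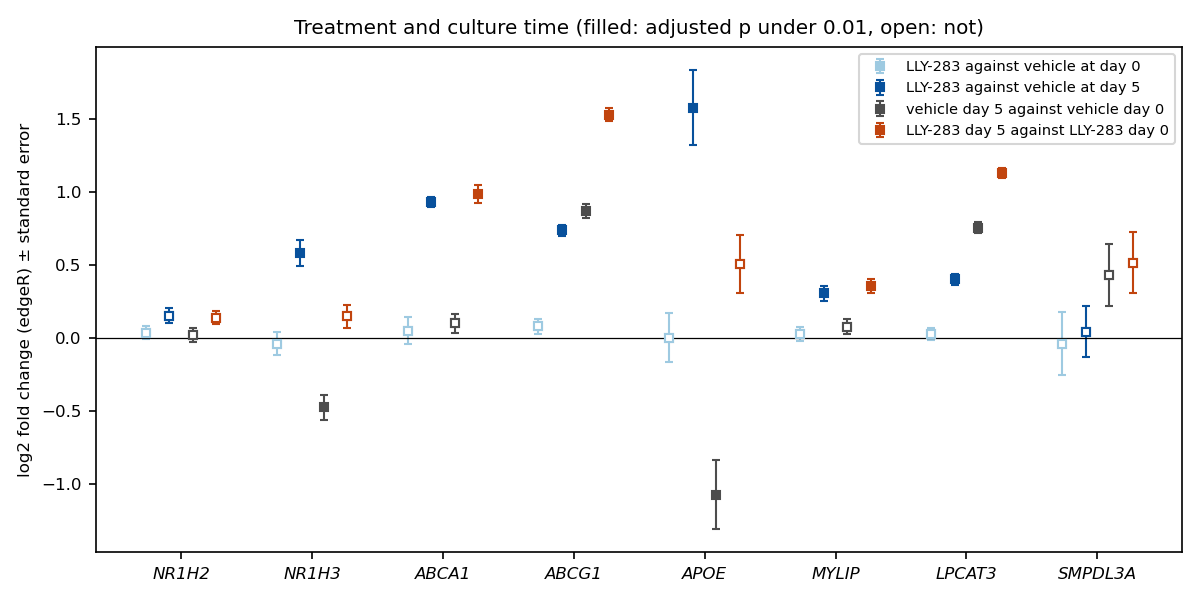
Log2 fold change with its standard error (vertical axis, edgeR) of the 8 tested genes in 4 comparisons, LLY-283 against vehicle at days 0 and 5, and day 5 against day 0 within each treatment, with filled squares for an adjusted p under 0.01 and open squares for the rest. NR1H3 and APOE lie below 0 for vehicle over time (-0.47 and -1.07), whereas ABCG1 and LPCAT3 lie above 0 over time in both treatments.

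Single libraries at days 1, 2, 3 and 10 allowed no test, and their ratios are given with a 95% interval that covers counting error only. At day 1 none of the 8 genes reached 1.25-fold in either direction, against 17.9% of 20876 genes higher and 12.3% lower. Genes could enter these 20876 through their counts in 1 library, so low-count genes that pass 1.25-fold by counting error are included. Such shares, here and for the other library pairs, are therefore only a rough background for members with high counts. ABCA1 was at 347 CPM in vehicle and 329.5 CPM in LLY-283, a ratio of 0.95 (0.918 to 0.982). At day 2 again none reached 1.25-fold, against 16.9% and 12.1%, with ABCA1 at 344.3 and 406.7 CPM and a ratio of 1.18 (1.14 to 1.22).

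By day 3, 6 of the 8 were at least 1.25-fold higher and none lower, against 24.8% and 14.9% of all genes. ABCA1 stood at 309.6 CPM in vehicle and 494.5 CPM in LLY-283, a ratio of 1.60 (1.54 to 1.65). APOE had 24 and 70 counts, a ratio of 2.71 (1.68 to 4.51). The ratio was 1.27 for NR1H3 (1.06 to 1.53), ABCG1 (1.18 to 1.37) and MYLIP (1.14 to 1.41), 1.15 for LPCAT3 (1.07 to 1.23) and 1.29 for SMPDL3A, whose interval of 0.825 to 2.04 includes no difference.

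Matched by their numbers, the 2 library pairs of day 7 ran in opposite directions as labelled. The sources do not say that equal numbers pair cultures, so the ratios and counts of each pair describe this matching only. Taken without it, each treatment held 1 higher and 1 lower library. For ABCA1 these were 415.5 and 226.6 CPM in libraries labelled vehicle and 476.5 and 244.5 CPM in those labelled LLY-283. Whether the labels of the pair numbered 2 were exchanged was not tested, and an exchange would turn the sign of each of its values. In the pair numbered 1, 6 of the 8 genes were at least 1.25-fold higher in LLY-283 and none lower (23.6% and 16.2% of all genes), with ABCA1 at 476.5 against 226.6 CPM, a ratio of 2.10 (2.03 to 2.18), and APOE at 65 against 20 counts, a ratio of 3.18 (1.90 to 5.54). In the pair numbered 2, 7 of the 8 were at least 1.25-fold lower in the library labelled LLY-283 and none higher (20.8% and 17.8% of all genes). There ABCA1 measured 415.5 CPM in the library labelled vehicle and 244.5 CPM in the one labelled LLY-283, a ratio of 0.589 (0.567 to 0.611).

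The same turn was seen outside the set. On a scale built from the other 1981 genes called higher and 2317 called lower at day 5, on which the day 5 vehicle mean is 0% and the day 5 LLY-283 mean 100%, the libraries labelled vehicle and LLY-283 day 7 replicate 2 stood at 47.2% and -7.81%. Those numbered 1 stood at -2.66% and 73%. The library labelled vehicle day 10 stood at 60.5% and the LLY-283 library of that day at 96.1%.

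With both day 7 pairs as labelled, none of the 8 was called at day 7 by edgeR (0% of 16826 genes called, 236 genes or 1.4% at an unadjusted p under 0.05, and 3 genes by DESeq2), and ABCA1 had a log2 fold change of 0.21 ± 0.503 SE. The 2 treatments overlapped for 7 of the 8, and NR1H2 was lower in LLY-283 without overlap (9.76% of all genes higher and 18.5% lower in that sense). Without the pair numbered 2, a shared fit of 20 libraries takes the lone day 7 library of each treatment to vary like the other groups. That pair was left out with its opposite direction already known, so the fit gives effect sizes and cannot test day 7. ABCA1 was then at log2 1.1 ± 0.106 SE, ABCG1 at 0.94 ± 0.0779, APOE at 1.69 ± 0.426, MYLIP at 0.42 ± 0.0843 and LPCAT3 at 0.36 ± 0.0623. NR1H3 was at 0.42 ± 0.138.

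The test of treatment over the time course also depended on the day 7 pair numbered 2. Over the 22 libraries of days 0 to 7, none of the 8 was called for a treatment difference that varied with day, with 0.0289% of 20756 genes called and edgeR adjusted p-values from 0.26 for NR1H3 to 0.99 for SMPDL3A. Without that pair, calls rose among the 8 genes and over all genes alike. Day 7 then held 1 library of each treatment, and the pair was left out with its opposite direction known. This fit is therefore no test of the 8 genes.

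At day 10, 3 of the 8 were at least 1.25-fold higher and none lower, against 20.6% and 16% of all genes. ABCA1 was at 315.4 CPM in vehicle and 519.3 CPM in LLY-283, a ratio of 1.65 (1.59 to 1.70). LPCAT3 had a ratio of 1.38 (1.30 to 1.48) and ABCG1 of 1.36 (1.27 to 1.45). APOE, by contrast, was at 6.087 CPM in vehicle and 5.857 CPM in LLY-283, the 2 highest values of the 24 libraries, and NR1H3 also reached its highest values, 20.93 and 25.41 CPM. These 2 libraries also had the highest sums of endothelial markers, given below, and a link between them was not tested.

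**Figure D3:**
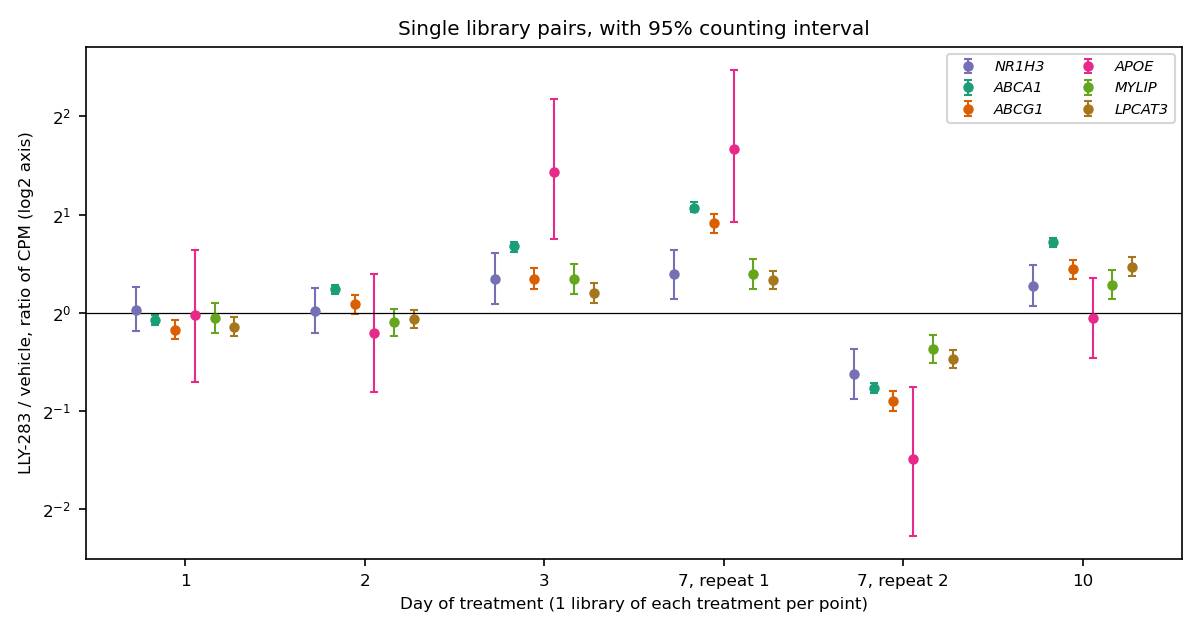
Ratio of CPM in LLY-283 to vehicle (vertical axis, log2 scale) for 6 genes in the single library pairs of days 1, 2, 3 and 10 and in each of the 2 pairs of day 7, with 95% counting intervals. The day 7 libraries are matched by number alone, which is not known to pair cultures. ABCA1 moves from 0.95 at day 1 to 1.60 at day 3 and 2.10 in the first pair of day 7, then lies at 0.589 in the second pair and at 1.65 at day 10.

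The rest of the sterol pathway was read from 8 lists holding 87 genes. For these lists, rose and fell compare LLY-283 with vehicle at day 5, unless a change over days is named. Among partners and cofactors of the receptors, 3 of 9 tested genes were called higher and 1 lower at day 5, against 12% and 14.1% of all genes tested, with a median log2 fold change of 0.10. NCOA1, a coactivator of nuclear receptors, rose from 45.19 ± 1.59 to 55.48 ± 0.779 CPM (SD, n = 3, log2 0.29, edgeR adjusted p = 3.90e-05). NCOA3, a second coactivator of that family, rose by 0.23 (adjusted p = 0.0011) and RXRB, an RXR partner, by 0.23 (adjusted p = 0.004).

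Of the other LXR target genes, 4 of 11 tested were called higher and none lower, again against 12% and 14.1%, with a median of 0.14. SREBF1, which encodes the transcription factor that drives fatty acid synthesis, rose from 158.3, 161 and 168.8 CPM to 239.6, 246.7 and 255.8 CPM (log2 0.60 ± 0.0392 SE, edgeR adjusted p = 2.60e-12). LPL, the lipase that hydrolyses triglyceride in lipoproteins, rose from 246.5 ± 3.38 to 324.8 ± 7.98 CPM (SD, n = 3, log2 0.39, adjusted p = 7.50e-10). APOC1, an apolipoprotein gene that neighbours APOE, rose from 7.75 ± 1.05 to 13.68 ± 0.138 CPM (SD, n = 3, log2 0.80, adjusted p = 1.00e-06).

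Of the enzymes that make or consume oxysterols, the receptors' ligands, none of 5 tested was called higher and 1 was called lower, against the same 12% and 14.1%, with a median of -0.20. CH25H, which makes 25-hydroxycholesterol, fell from 5.571 ± 0.238 to 3.557 ± 0.262 CPM (SD, n = 3, log2 -0.66, edgeR adjusted p = 0.0013).

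The list of sterol synthesis genes, which SREBP-2 controls when cell cholesterol is low, had 13 of 14 genes called lower at day 5, against 14.1% of all genes, and none higher, with a median of -0.49. ACAT2, an acetoacetyl-CoA thiolase, stood at 119.5 ± 4.18 CPM in vehicle and 60.16 ± 2.54 CPM in LLY-283 (SD, n = 3, log2 -1.0, edgeR adjusted p = 1.20e-15). HMGCS1, which makes HMG-CoA, was lower in LLY-283 by 0.73 on the log2 scale (adjusted p = 2.10e-14) and SQLE, the squalene epoxidase, by 0.60 (adjusted p = 2.90e-13). In vehicle cells from day 0 to day 5 the same list had 13 genes called higher and 1 lower, against 22.1% and 15.4% of all genes, with a median of 0.69. In LLY-283 cells over the same days it had 6 called higher and 1 lower, against 22.6% and 16.9%, with a median of 0.19. The list's median thus lay above day 0 in both treatments, by less in LLY-283.

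Genes of uptake, storage and other lipid transport were read against the 12% of all genes called higher and 14.1% called lower at day 5. Of 7 lipoprotein receptor genes tested, LRP1, which takes up APOE particles, rose (log2 0.41, edgeR adjusted p = 1.50e-04) and SCARB1, the HDL receptor, fell (log2 -0.19, adjusted p = 6.20e-04), with a list median of 0.02. Of 12 trafficking and storage genes, SOAT1, which esterifies cholesterol, fell (log2 -0.26, adjusted p = 2.20e-06), while the lysosomal NPC2 (0.26, adjusted p = 0.0015) and LIPA (0.12, adjusted p = 0.0097) rose, with a median of 0.01. Of 7 other ABC lipid transporters, ABCA2 (0.33, adjusted p = 1.40e-07) and ABCA7 (0.76, adjusted p = 6.10e-04) rose and none fell, with a median of 0.09. Of 6 relatives of LPCAT3 and SMPDL3A, SMPD1, the acid sphingomyelinase (0.55, adjusted p = 1.00e-06), and LPCAT4 (0.25, adjusted p = 0.002) rose and none fell, with a median of 0.02.

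**Figure D4:**
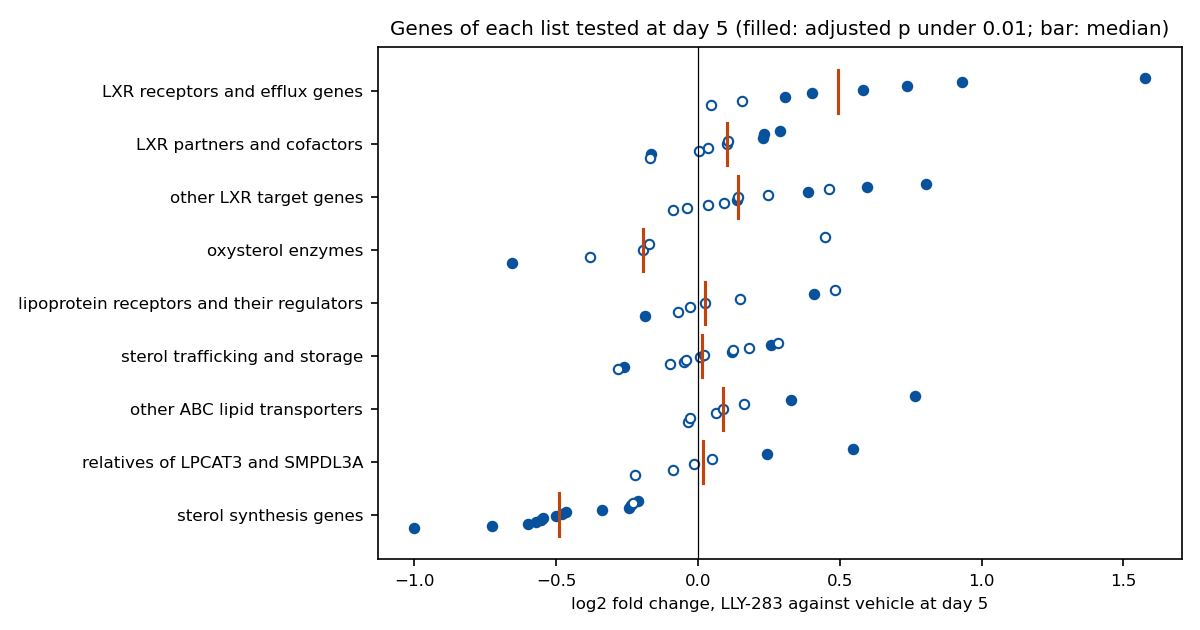
Log2 fold change of LLY-283 against vehicle at day 5 (horizontal axis) for each tested gene of the receptor and efflux set and of 8 pathway lists, with filled points for an adjusted p under 0.01, open points for the rest and a bar at the list's median. The set of receptors and efflux genes has a median of 0.49 and the sterol synthesis genes one of -0.49, and the medians of the other 7 lists run from -0.20 to 0.14.

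The genes whose log2 CPM followed each called gene most closely over the 24 libraries were sought among 20875 others, as a description only, since all points share the libraries and their treatment. The 3 nearest to ABCA1 were ZMIZ2, ITGB8 and IKBKB (Pearson r 0.966, 0.945 and 0.94). The 3 nearest to ABCG1 were IRX2, ABAT and PLEKHA4 (0.968, 0.963 and 0.962), and those nearest to LPCAT3 were DDAH1, TTYH1 and GALNT17 (0.983, 0.968 and 0.965). NR1H3 was followed most closely by LGALS3, SPP1 and SMARCA2 (0.946, 0.916 and 0.893), APOE by CA11, GLIS3 and METTL25B (0.919, 0.896 and 0.894), and MYLIP by INPPL1, BCHE and SCRG1 (0.909, 0.892 and 0.892).

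Because macrophages and astrocytes can express genes of this set, markers of other cell types were read in the same libraries. Marker CPM are scaled on library totals alone, without TMM. The 12 microglia and macrophage markers summed to between 0.2396 and 1.999 CPM per library, none reached a median of 1 CPM, and TYROBP, C1QA, C1QB and C1QC were at 0 in all 24. The 8 markers of glioma and oligodendrocyte precursor cells summed to 4437 to 5237 CPM, with 7 of the 8 at a median of 1 CPM or more. At day 5 they summed to 4927 to 5031 CPM in vehicle and to 4792 to 4891 CPM in LLY-283, with 2 of 7 tested markers called higher and 2 lower. These sums were lower without overlap on library totals, by a narrow gap (4927 against 4891 CPM) that was not read with TMM. Of all single genes tested at day 5, 12% were called higher and 14.1% lower, and 24.2% lay higher and 21.1% lower without overlap. The marker calls and separations at day 5 are to be read against these shares. The 6 neuron markers summed to 212 to 220.2 CPM in vehicle and to 247.5 to 258.1 CPM in LLY-283 at day 5, higher without overlap. Their list was split, with 2 of 5 tested markers called higher (SYT1 and GAP43) and 1 lower (TUBB3). The 6 endothelial markers summed to 4.853 to 6.505 CPM in vehicle and 5.688 to 7.748 CPM in LLY-283 at day 5. Their highest sums were those of the single day 10 libraries, 25.9 CPM in vehicle and 12.29 CPM in LLY-283. PECAM1 reached 25 CPM in that vehicle library, against a median of 6.37 CPM over all libraries. The 7 astrocyte markers summed to 422.2 to 438.9 CPM in the day 5 vehicle libraries and to 403.2 to 437 CPM in the day 5 LLY-283 libraries, with AQP4 at 0 in every library. Of 5 tested, 2 were called higher, GFAP (log2 1.25) and AGT (1.27). The 2 called lower changed less, GJA1 (-0.23) and SLC1A3 (-0.18). The list's median, 0.612, was the value of SLC1A2, which was not called (edgeR adjusted p = 0.16). Median levels over the 24 libraries were low for GFAP (1.56 CPM) and SLC1A2 (1.15). They were 49.6 CPM for AGT, 84.7 for GJA1 and 317 for SLC1A3. The 10 fibroblast markers, none of them at 0 throughout, summed to 212.4 to 375.9 CPM in vehicle, highest in replicate 3, and to 299.7 to 309.2 CPM in LLY-283. Of 9 tested, 3 were called higher and none lower, yet only these 3 lay above 0 and the list's median log2 fold change was -0.625. FN1 (log2 -3.94 ± 1.94 SE), COL1A2 (-2.86 ± 1.91) and COL1A1 (-1.55 ± 1.03) were lower with wide errors and were not called. Each had its highest value of the 24 libraries in vehicle day 5 replicate 3. These were 59.1, 36.1 and 52.7 CPM, against medians of 3.15, 1.07 and 7.89 over all libraries. DCN, whose value is the list's median, was also highest in that library (3.69 CPM, median 0.636). The 6 calls at day 5 held without vehicle day 5 replicate 3, and the part of the glioma, neuron, astrocyte and fibroblast markers in the result was not tested.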

How the data were processed

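Reads from 24 poly(A) libraries made with a directional kit were trimmed by the authors and pseudoaligned with kallisto (version not given in the sources used here) to the hg38 transcriptome, and the authors deposited estimated counts per Ensembl gene, as whole numbers without normalisation. Of 58676 identifiers, 58207 were matched to a symbol, and no column of the table was left unmapped (0). From these, edgeR 4.0.16 in R 4.3.3 was run with TMM scaling, its filter on low counts by group, robust quasi-likelihood fits, and p-values adjusted by Benjamini and Hochberg over all genes tested, with calls at an adjusted p under 0.01. Days 0, 5 and 7 were each tested within their own libraries, changes over time and their difference within the 12 libraries of days 0 and 5, and the time course over the 22 libraries of days 0 to 7. Printed CPM used TMM factors over all 24 libraries, except for the cell type markers, whose CPM were scaled on library totals alone. Single library pairs were described by a fold of 1.25 and an exact conditional 95% interval for the ratio of 2 Poisson counts, which covers counting error only, since reads carried no molecular identifiers. DESeq2 1.42.0, the authors' tool, other scalings and filters, the replicate number as a block and leaving out each library were alternatives. A shared fit of 20 libraries without both day 7 libraries numbered 2 was planned for day 7 and the time course. The opposite direction of that pair was already known from earlier results when it was planned. For the other comparisons this fit was chosen after seeing the data.

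The members, the pathway and marker lists and the tests were chosen with earlier results of these data known. The text names all 9 members, at most 3 called genes of smallest p per pathway list at day 5, and for each member called at day 5 the 3 genes of highest Pearson r of log2 CPM (prior count of 2). Cell type markers are named without this limit. Gene positions and canonical transcript lengths came from GENCODE on GRCh38, and promoter windows from RefSeq on GRCh38.p14. The tests across genes and the motif search were checked on simulated data. Library totals had a median of 18688160.5 counts. From the oxysterol list 1 further gene was left out of all counts, and it is not reported here.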

Additional observations from a re-analysis of the deposited data

Results flagged for a closer look

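For 6 genes the log2 difference between LLY-283 and vehicle at day 5 differed from that at day 0 by the interaction test in edgeR. The test takes in the same day 5 libraries as the day 5 calls and is no separate support for them. The change in the difference was 0.621 for NR1H3 (adjusted p = 1.70e-04), 0.883 for ABCA1 (2.40e-05), 0.659 for ABCG1 (4.90e-08), 1.58 for APOE (4.00e-04), 0.281 for MYLIP (0.003) and 0.376 for LPCAT3 (6.30e-06).

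The day 10 libraries, 1 of each treatment, stand outside the main tests. Only an alternative fit of the time course over all 24 libraries took them in. The ratio of CPM in LLY-283 to vehicle lay above 1 together with its whole counting interval for 5 genes. It was 1.21 for NR1H3, 1.65 for ABCA1, 1.36 for ABCG1, 1.22 for MYLIP and 1.38 for LPCAT3. How many of all genes meet this rule was not counted, so the number 5 is no result about the set. By the 1.25-fold rule used above, 3 of the 8 genes were higher, against 20.6% of all genes. The counting intervals leave out the spread between cultures, and the ratios have no replicate check.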

How the results depend on the processing

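Most values kept their side of the threshold. At day 5, 113 of 120 values of the 8 genes under the alternatives did so, 5 lost and 2 gained a call, and at day 0, 120 of 120 did so. The sign of values that were never called was less stable, as SMPDL3A ran from -0.123 to 0.16 at day 5 and from -0.187 to 0.225 at day 0. With all 22 libraries in a shared fit the number of the 8 genes called moved from 6 to 1 at day 5, from 6 to 0 for the change in the treatment difference, and from 4 to 2 for vehicle over time (ABCG1 and APOE lost), where that fit also takes in the day 7 spread. In the 20-library fit without both day 7 libraries numbered 2, LPCAT3 turned from -0.04 to 0.362 at day 7. That fit holds 1 library of each treatment at day 7, so its calls there and for the time course are not counted here. At an adjusted p under 0.05 the count for LLY-283 over time moved from 4 to 7, while over all 18369 genes it moved from 7257 to 8906. Without a filter on low counts the time course called 3, and leaving out 1 library gave 0 to 1, with 1 (LPCAT3) without vehicle day 7 replicate 1.

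Over all genes, the shared fit of 22 libraries moved the calls at day 5 from 4304 to 2042 and those of vehicle over time from 6899 to 5095. Calls of the change in the treatment difference moved from 2742 to 51 in that fit (4450 in the main fit at an adjusted p under 0.05). The day 0 calls moved from 3 to between 0 and 56, and the time course calls from 6 to 1217 without a filter and 221 with DESeq2. In the 20-library fit the calls at day 7 and for the time course rose over all genes. Leaving out 1 library alone moved the time course calls to 894 (LLY-283 day 7 replicate 1), 341 (LLY-283 day 7 replicate 2), 287 (vehicle day 7 replicate 1) or 54 (vehicle day 7 replicate 2), and to 0 to 6 for each library of days 0 and 5. Same-numbered libraries did not deviate together (correlations -0.0755 to 0.00605 over 20876 genes), so their numbers give no pairing. With the replicate number as a block 6 of the 8 genes were called at day 5, 0 at day 0, 0 at day 7, 4 in each treatment over time, 6 for the change in the difference and 0 for the time course. Over all genes the block gave 4401 calls at day 5, 6 at day 0 and 0 at day 7. It gave 6584 in vehicle and 7025 in LLY-283 over time, and 2435 for the change in the difference. Depth limits ABCG4, SMPDL3A and APOE.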
